A study of Mus musculus with 312 samples.

Results

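The 88 genes described here carry symbols of cytosolic ribosomal proteins in the mouse, and they were chosen by name alone: every Entrez gene ID whose symbol begins with Rpl or Rps and a number, together with Rplp0, Rplp1, Rplp2 and Rpsa. The genes of the S6 kinase family (Rps6k), Rps19bp1 and 36 IDs of annotated ribosomal protein pseudogenes were left out. The deposited counts held 27179 gene IDs, of which 25260 had a symbol and were not mitochondrial. These 25260 genes made up the total of each cell, with the ribosomal protein genes in it. Of the 88 genes, 77 encode the standard subunits, 31 of the small (40S) subunit and 46 of the large (60S) subunit, and 11 are paralogs or retrocopies such as Rps27l, Rpl22l1 and Rpl37rt. Not all of the 11 are known to encode a protein: GENCODE lists Rpl32l as a processed pseudogene and Rpl37rt as a processed transcript without a coding sequence. Fau and Rack1, which also supply ribosomal proteins, have other symbols and were not members.

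The ribosome is built from ribosomal RNA and about one copy of each of these proteins, so that cells make the proteins in matched amounts. Their mRNAs are short and abundant in growing cells, and most of them begin with a C followed by a run of pyrimidines, the 5′ terminal oligopyrimidine (TOP) motif, through which mTOR and Larp1 control their translation. Ribosomal protein genes have also left many processed pseudogenes in mammalian genomes, and short reads from them are hard to assign to one copy.

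RNA was measured in 312 single mammary cells of the mouse strain FVB/NJ. All carry the label basal, the outer contractile layer of the mammary epithelium. Titles divide them into 112 adult cells that carry the mark (2), 125 adult cells without it and 75 cells from pregnancy. These groups are called marked adult, unmarked adult and pregnancy cells here. The labels give no treatment, no genotype beyond the strain, no animal, no day of pregnancy and no meaning for the mark. In the study, adult basal cells were sorted from the glands of several mice. The study describes single pregnancy cells only as total epithelium, and it retained more of them than the 75 here. How these 75 cells relate to that set is not given. Their basal identity rests on their labels and on the core basal genes counted below. Pregnancy and capture run cannot be told apart. Each cell was captured in its own chamber of a Fluidigm C1, which makes full-length cDNA from polyadenylated RNA. With at least 50000 read pairs and 1000 genes, 81 marked adult, 58 unmarked adult and 71 pregnancy cells were retained. Because no animals are named, each group counts as 1 sample, and no difference below has a replicate check or a p-value. Intervals given for summed reads cover counting error only.

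The retained cells held a median of 177987 assigned read pairs in marked adult, 103824 in unmarked adult and 236845 in pregnancy cells, and no pair of cells had identical counts. At least 6 of 11 core basal genes, among them Krt14, Krt5 and Acta2, reached 100 CPM (counts per 1e6 assigned read pairs) in 76 of 81 marked adult, 51 of 58 unmarked adult and 70 of 71 pregnancy cells. Mitochondrial reads, which were not part of the total, took a median of 9.65%, 15.6% and 18.4% of all reads in the same order. Summed reads of 8 fibroblast genes ranged from 0 to 0.467% in marked adult cells, with Dpt and Lum at 0, from 0 to 3.79% in unmarked adult cells and from 0.00544 to 0.565% in pregnancy cells. Summed reads of 14 proliferation genes reached 0.428%, 0.461% and 0.735% in the same order, with no gene of that list at 0 in any group. Immune reads of 8 genes reached 9.48% in 1 marked adult cell and at most 0.0251% in unmarked adult and 0.124% in pregnancy cells, with Cd3e at 0 in each group and H2-Aa at 0 in unmarked adult cells. Endothelial reads of 8 genes reached 0.00715%, with Tek at 0, 0.757% and 0.0174% in marked adult, unmarked adult and pregnancy cells, and reads of 7 luminal genes 0.363%, 1.24% and 0.577%. The 7 milk protein genes reached 0.0608% in marked adult cells, with Csn1s2b and Lalba at 0, 0.869% in unmarked adult cells, with Csn1s2b and Wap at 0, and 21.8% in pregnancy cells. The part of these differences in the results below was not tested, except where a value without such cells is given.

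Sequence sets the frame for what these counts can show, so it is given first. RefSeq start sites of GRCm38.p6 were at hand for 68 of the 88 genes, and windows from 10 bases before to 20 bases from the annotated start, read on the transcribed strand, were searched for pyrimidine runs. The annotated start base is base 11 of each window. Where a gene had several annotated starts, only the first listed was searched. A start of C followed by at least 4 further pyrimidines was found in 14 of 68 ribosomal protein genes (20.6%), against 2.49% of 27025 start sites of all genes. A run of at least 8 pyrimidines anywhere in the window was found in 23 (33.8%), against 11.2% of all genes. The windows below, with that run in capitals where there is one, show the range. Rpl14 (chr9:120571507-120571536, plus strand), Rpl15 (chr14:18270967-18270996, minus strand), Rpl35 (chr2:39005112-39005141, minus strand) and Rps6 (chr4:86857348-86857377, minus strand) have such a run across the start, Rpl27a (chr7:109519185-109519214, plus strand) has one but does not meet the rule for a C start, and Rpl4 (chr9:64173377-64173406, plus strand) and Rps3 (chr7:99483690-99483719, minus strand), which had high levels in these cells, have none. A missing run says only that these letters are not in the window. The starts in use in these cells were not measured, so the counts do not show how many of the mRNAs carry the TOP motif.
Rpl14: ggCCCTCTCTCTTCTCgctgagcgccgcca
Rpl15: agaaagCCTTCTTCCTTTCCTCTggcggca
Rpl35: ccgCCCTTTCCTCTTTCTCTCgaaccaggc
Rps6: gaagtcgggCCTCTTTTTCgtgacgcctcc
Rpl27a: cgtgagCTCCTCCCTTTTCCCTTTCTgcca
Rpl4: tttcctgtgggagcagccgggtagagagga
Rps3: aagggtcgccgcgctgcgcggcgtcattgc

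The second set of sequences shows why copies of these genes cannot all be told apart. The first 60 coding bases of Rps27 (gene at chr3:90212671-90213651, minus strand), of its retrocopy Rps27rt (chr9:114982366-114982739, minus strand) and of its diverged paralog Rps27l (chr9:66946086-66949512, plus strand) follow from the GENCODE transcripts of GRCm38, with bases that differ from Rps27 in capitals.
Rps27: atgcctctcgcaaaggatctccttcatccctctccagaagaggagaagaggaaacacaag
Rps27rt: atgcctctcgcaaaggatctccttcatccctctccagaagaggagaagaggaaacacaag
Rps27l: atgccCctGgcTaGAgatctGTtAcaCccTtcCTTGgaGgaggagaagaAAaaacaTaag
Over the whole coding sequence of 252 bases, Rps27rt had 0 mismatches to Rps27 and Rps27l had 60. Of all 75-base windows of the Rps27 transcript, a length that matches the reads, 98.5% also lay in the Rps27rt transcript and 0 lay in that of Rps27l. Rpl37rt, the retrocopy of Rpl37, has no annotated coding sequence. Its best match to the 291 coding bases of Rpl37 carried 1 mismatch, and 25.8% of the windows of the Rpl37 transcript lay in it. How the authors counted read pairs that fit several places is not stated, so levels within such families are uncertain.

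Reads in the 88 genes formed a small and variable share of each cell. In marked adult cells the share was 0.419% in the lowest cell, 1.503% at the median and 3.13% in the highest. In unmarked adult cells it ran from 0.367% through a median of 1.96% to 2.96%. In pregnancy cells it ran from 0.656% through a median of 1.62% to 2.81%. The ranges overlapped almost completely: 80 of 81 marked adult cells lay inside the range of unmarked adult cells, and 71 of 71 pregnancy cells lay inside that of either adult group. The middle of the groups differed more, since 14 of 81 marked adult cells (17.3%) and 22 of 71 pregnancy cells (31.0%) lay above the unmarked adult median. In summed reads the share was 1.58% in marked adult (interval 1.57 to 1.59%), 1.87% in unmarked adult (interval 1.86 to 1.88%) and 1.69% in pregnancy cells (interval 1.69 to 1.70%).

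**Figure D1:**
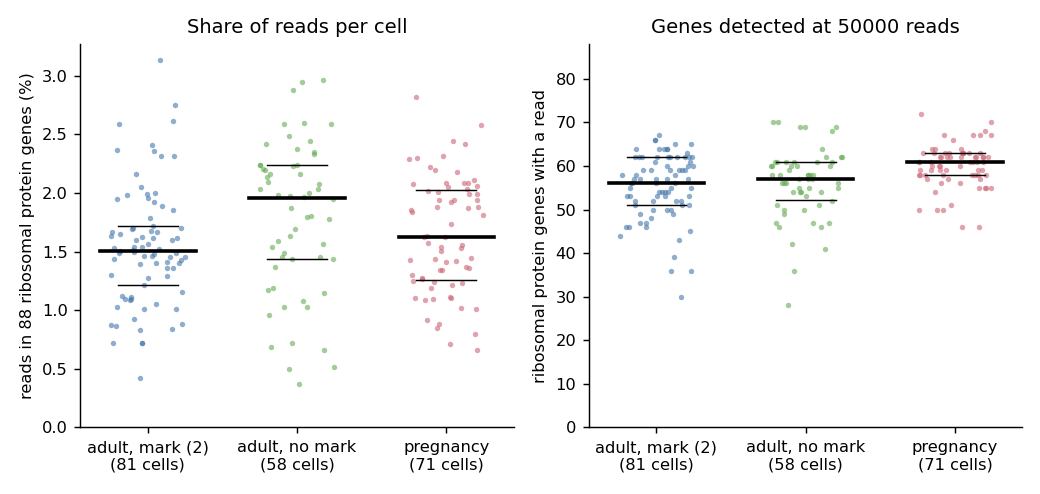
Share of assigned reads in the 88 ribosomal protein genes (left, percent) and number of these genes with a read after thinning to 50000 reads (right) in each retained cell; points are cells, thick lines medians and thin lines quartiles. The unmarked adult cells have the highest median share, 1.96%, and the pregnancy cells the highest median number of genes, 61.

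The order of the adult groups held when mitochondrial reads were added to the total, but the place of pregnancy did not: the median shares were then 1.35% in marked adult, 1.49% in unmarked adult and 1.29% in pregnancy cells, which put pregnancy lowest. With cells of at most 30% mitochondrial reads, a limit chosen after the data were seen, pregnancy lay at 1.81%, marked adult at 1.503% and unmarked adult at 1.96%. The largest distance between medians was thus that between the adult groups, whose labels differ by the mark alone, except with mitochondrial reads in the total. The lowest cells were not of 1 kind. Marked adult cell 104 (0.419%) had 5 core basal genes at 100 CPM and 6.96% mitochondrial reads, unmarked adult cell 169 (0.367%) had 2 core basal genes, and unmarked adult cell 120 (0.512%) had 79.5% mitochondrial reads.

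Within a cell, both subunits moved together. The share in small subunit genes had a median of 0.558% in marked adult, 0.705% in unmarked adult and 0.660% in pregnancy cells, and that in large subunit genes 0.749%, 0.935% and 0.811%. Across cells the Spearman correlation of both shares was 0.69 (81 cells), 0.64 (58 cells) and 0.78 (71 cells) in the same order, as a description of cells that share a total in the divisor. Among the 23 members with a mean of at least 200 CPM, the median correlation of gene pairs across cells was 0.27, 0.24 and 0.25, against 0.07, 0.09 and 0.03 among 893 other genes of that level. The share was weakly related to the reads of basal genes, with a Spearman correlation of 0.39, 0.32 and 0.23, and to depth, with 0.22, 0.20 and 0.34.

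More members were seen in pregnancy cells. After each cell was thinned to 50000 reads, 30 to 67 members had a read in marked adult cells (median 56), 28 to 70 in unmarked adult cells (median 57) and 46 to 72 in pregnancy cells (median 61). Without thinning the medians were 67, 63 and 74, an order that follows depth. Genes of all kinds also rose in number at equal depth, from medians of 2354 and 2244 in marked and unmarked adult cells to 3247 in pregnancy cells, so the larger number of ribosomal protein genes was not particular to them.

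Although the ribosome holds these proteins in like numbers, the counts of their genes were very unequal. The 5 members with most reads held 36.9% of member reads in marked adult, 36.2% in unmarked adult and 33.3% in pregnancy cells, and the 44 members with fewest reads held 6.07%, 5.56% and 6.94%. Levels between genes are compared per kilobase of exon, as mean CPM per kb. The highest was Rpl8, a core protein of the large subunit near its catalytic centre, with 1680.3, 1752 and 1804 CPM per kb in marked adult, unmarked adult and pregnancy cells. Rpl8 ranked 20 among 25260 genes in marked adult cells, and 7, 8 and 7 members were among the 50 highest genes of the groups in the same order. It was followed by Rps20 (1120.3, 1746 and 1413 CPM per kb), a protein of the head of the small subunit, and by Rpl37rt (1365, 1605 and 1224 CPM per kb). Rpl41, the smallest ribosomal protein, and Rps14 were also among the 6 highest, with means over the groups of 1172 and 1057 CPM per kb.

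At the other end, Rpl10l had no read in any retained cell, and Rpl3l and Rpl39l, paralogs known mainly from muscle and testis, had means of 0.0430 and 0.151 CPM per kb. Among genes of the standard ribosome, Rpl29, Rpl39 and Rpl13 had means of 1.14, 2.71 and 4.17 CPM per kb. Rpl29 had a read in 2 of 81, 2 of 58 and 2 of 71 thinned cells. Rpl11, which with Rpl5 restrains Mdm2 when ribosome assembly fails, was at 6.36 CPM per kb, against 28.5 for Rpl5. Both are standard members, and Rpl11 shared 61.0% of its windows with other genes, against 47.9% for Rpl5, by the measure given below. The order of all 88 genes was nearly the same in each group, with Spearman correlations of 0.97 to 0.98 between groups.

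**Figure D2:**
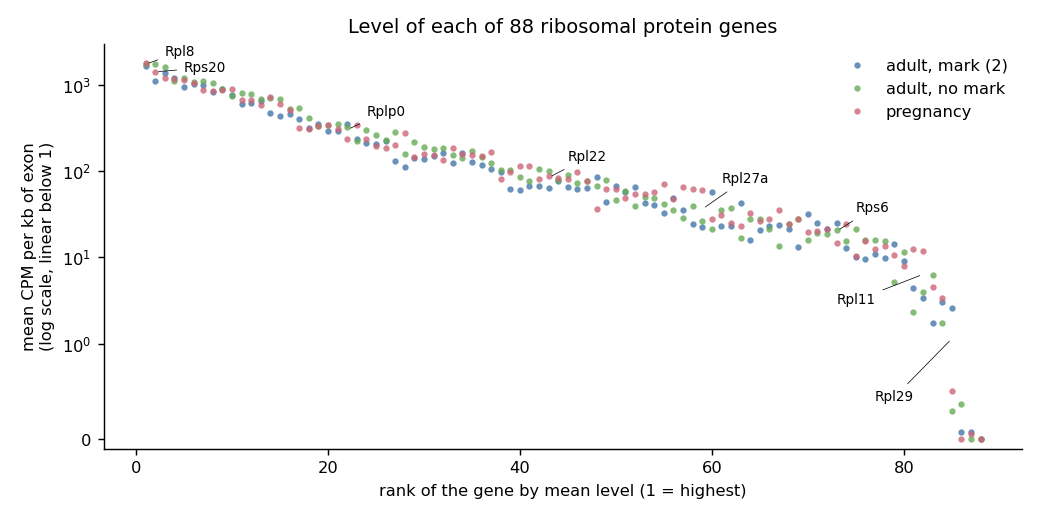
Mean level of each of the 88 genes in CPM per kb of exon (log scale, linear below 1) against its rank by the mean of the groups; colours mark the groups. Points of 1 gene lie close together while genes spread from 0 to 1746 CPM per kb in mean level.

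Levels were set beside the sequence that each gene shares with other genes. For 87 members with a GENCODE transcript, the percentage of 75-base windows that also occur in a transcript of another gene was computed. Among the 77 standard members, 15 shared under 25% of windows and had a median level of 647 CPM per kb. The 29 members that shared 25 to 50% had a median of 133, the 17 that shared 50 to 75% had 72.8, and the 16 that shared at least 75% had 23.2 CPM per kb. These first 15 members held 46.9% of all member reads. The windows came from a single GENCODE transcript per gene, whose length can differ from that of the counted exons. Rps20, among these 15 with 6.55% shared, was read from a transcript of 3706 bases, longer than its counted exons, so its class is uncertain. Any transcript with another gene symbol was counted, even where it need not come from a separate copy. For Rps10 all of the 67.5% shared windows also lay in RPS10-NUDT3, by its name a joint transcript with Rps10, so its class is uncertain too. Across the 77 genes the Spearman correlation of shared windows and level was -0.52, -0.54 and -0.53 in marked adult, unmarked adult and pregnancy cells, as a description of genes that are not independent. A looser measure counted transcript bases in near copies, alignments of at least 75 bases at 95% identity or more with another gene's transcript. Its correlation with level was -0.13, -0.16 and -0.15 in the same order, so the relation was much weaker by that measure. Rpl4 shared 8.47% of its windows but had 82.2% of its bases in near copies.

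Single genes show the range. Rps3 shared no window with another gene and had a mean of 647 CPM per kb, and Rpl8 shared 4.89%. Rps27 shared 98.5% of its windows and had a mean of 23.4, and Rps6, the substrate of S6 kinase, shared 84.1% and had a mean of 20.2 CPM per kb. The relation was loose. Rpl39 shared 7.62% and still had 2.71 CPM per kb, Rpl28 shared 33.0% and had 9.53, and the paralogs Rpl3l, Rpl39l and Rpl10l shared at most 0.316% at levels near 0. Rps15a had a low level per kb, 25.2, partly by construction, since its listed exon length was 5136 bases. Whether reads that fit several genes were lost in counting was not tested.

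**Figure D3:**
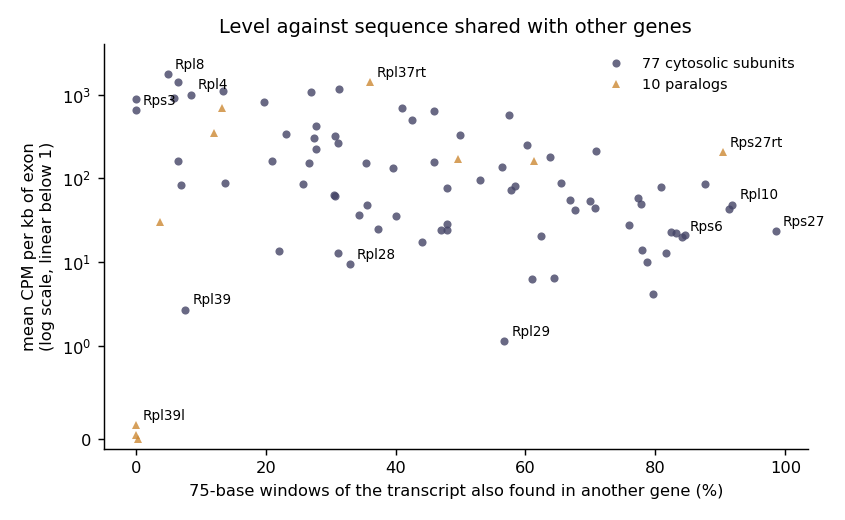
Mean level in CPM per kb of exon (log scale, linear below 1) against the percentage of 75-base windows of the transcript found in another gene, for 77 standard members (circles) and 10 paralogs (triangles). Standard members at the left lie mostly above 100 CPM per kb and those at the right below it, with Rpl39 and Rpl21 among the exceptions at the left.

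Pairs of paralog and partner were read with these limits. Rpl37rt had 865, 1017 and 776 CPM in marked adult, unmarked adult and pregnancy cells, against 58.6, 91.1 and 70.8 CPM for Rpl37, whose coding sequence it matches but for 1 base. Rps27rt had 48.5, 105.8 and 75.5 CPM, against 12.3, 14.1 and 13.9 CPM for Rps27. In both pairs the retrocopy was thus credited with more reads than the gene it came from. Rps27l, a p53 target that shares no window with Rps27, had 146, 191 and 142 CPM. Rpl22l1, whose protein can replace Rpl22 and is held down by it, had 143, 216 and 147 CPM per kb, against 64.3, 100.4 and 88.4 for Rpl22, with no shared window between them. Rpl36al had 163, 186 and 134 CPM per kb, against 24.8, 19.2 and 20.2 for Rpl36a. Rpl7l1 had 23.1, 35.9 and 31.2 CPM per kb, far below Rpl7 with 605, 814 and 679.

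Differences between groups are given as log2 of the ratio of mean CPM, with 10 CPM added to both means. A change of at least 1 in either direction stands for a 2-fold difference, and it is a rule of size, not a test. Over all 88 members the median log2 ratio was 0.14 for pregnancy over marked adult, -0.01 for pregnancy over unmarked adult and 0.18 for unmarked over marked adult cells. Over the 3723 genes whose mean reached 50 CPM these medians were 0.03, -0.00 and 0.02. The 51 members that reached the same 50 CPM, given as a description at a like level, had medians of 0.16, -0.17 and 0.27. By this measure the value near 0 for pregnancy over unmarked adult cells was that of the whole list and not of these 51. The 50 CPM were asked of the mean over the groups compared, so a member can enter through a group where it is high. Median absolute ratios of all 88 members were 0.23, 0.23 and 0.27 and those of the 51 were 0.22, 0.24 and 0.29, against 0.54, 0.62 and 0.53 over the 3723 genes. The comparisons share cells, so they are not independent of each other.

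Counts of members follow. For pregnancy over marked adult cells, 2 of 88 members were at least 2-fold higher, against 13.8% of all genes, and 0 were at least 2-fold lower, against 11% of all genes. For pregnancy over unmarked adult cells 0 members passed in either direction, against 14.6% higher and 14.8% lower of all genes. For unmarked over marked adult cells 0 members passed, against 13.6% higher and 11.8% lower. Ratios were above 0 for 57 members in the first comparison, 41 in the second and 62 in the third, against 51.6%, 49.8% and 51.7% of the genes that reached 50 CPM. Of the 51 members at that level, 35 (68.6%), 17 (33.3%) and 43 (84.3%) lay above 0 in the same order. Low members cannot pass 2-fold easily because of the added 10 CPM. Relative to the median of the other genes the members' medians were 0.12, -0.01 and 0.16 in the order above. With mitochondrial reads in the total, the median of the other genes for pregnancy over marked adult cells was -0.13 and that of the members -0.00, a distance of 0.13. As differences of mean log2 values, the distance from the other genes turned to -0.13 for pregnancy over marked adult and was -0.31 for pregnancy over unmarked adult cells, and only that between the adult groups, 0.15, stayed close to its value.

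**Figure D4:**
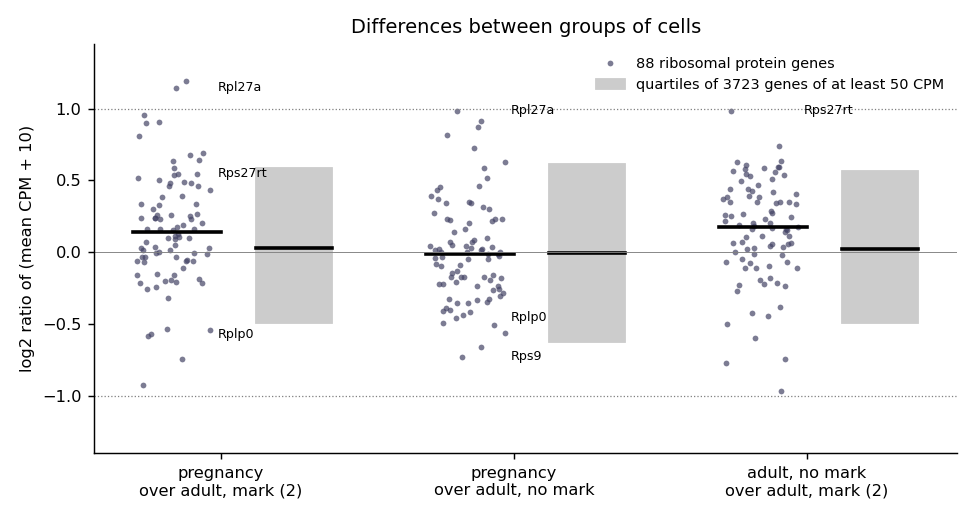
Log2 ratio of (mean CPM + 10) for each of the 88 members (points, thick line at the median) beside the quartiles of the 3723 genes that reached 50 CPM (grey boxes, line at the median) in each comparison. Members lie mostly within the span of the grey boxes, and Rpl27a is among the 2 points past the dotted line of 1 for pregnancy over marked adult cells.

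Of the small subunit, Rpsa, the laminin receptor protein, had a higher level in pregnancy. Its level ran from 0 through 172 to 744 CPM in marked adult, from 0 through 225 to 914 CPM in unmarked adult and from 31.4 through 294 to 954 CPM in pregnancy cells, with log2 ratios of 0.64 and 0.44. Rps24, Rps26 and Rps28 had ratios over marked adult cells of 0.81, 0.52 and 0.48, and over unmarked adult cells of 0.37, 0.59 and 0.23, the last of which was -0.02 with cells of at least 100000 read pairs and 1500 genes. In the other direction Rps9 and Rps4x had ratios of -0.32 and -0.26 over marked and -0.73 and -0.33 over unmarked adult cells. Rps9, which guards decoding accuracy in the small subunit, ran from 0 through 269 to 899 CPM in marked adult, from 0 through 276 to 1813 CPM in unmarked adult and from 7.27 through 213 to 758 CPM in pregnancy cells. For Rpsa and Rps9 the ranges of single cells overlapped between all groups.

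Of the large subunit, Rpl27a passed the 2-fold limit with reads in a minority of thinned cells. Its median was 0 CPM in both adult groups and 6.95 CPM in pregnancy cells, and the highest cells had 279, 605 and 1531 CPM in marked adult, unmarked adult and pregnancy. It had a read in 25 of 81, 15 of 58 and 25 of 71 thinned cells. The log2 ratio over marked adult cells was 1.14, and 0.83 without the highest cell of each group, an alternative added after the data were seen. As a difference of mean log2 values it was 0.45. Rpl10, which joins the 60S subunit last and shared 91.9% of its windows, had ratios of 0.90 and 0.63 over marked and unmarked adult cells. Its levels were 32.6, 41.9 and 71.6 CPM per kb in marked adult, unmarked adult and pregnancy cells. Rpl10a had ratios of 0.68 and 0.52. Members named as higher in pregnancy, Rpl27a and Rpl10 among them, had to reach 50 CPM in pregnancy only, so the rule favours them.

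Lower in pregnancy by this measure were Rpl4, Rpl15, Rpl36, the paralogs Rpl36al and Rpl37rt, and Rplp0. Rpl4 had ratios of -0.20 over marked and -0.34 over unmarked adult cells from means of 1426, 1575 and 1239 CPM in marked adult, unmarked adult and pregnancy cells. Rpl36 had -0.22 and -0.28, and Rpl37rt -0.16 and -0.39. Rpl15 had -0.21 and -0.24 and Rpl36al -0.24 and -0.41, and both genes turned positive as differences of mean log2 values. The lowest ratio of any member for pregnancy over marked adult cells, -0.93, was that of Rpl34. Its means were 50.6 CPM in marked adult and 21.9 CPM in pregnancy cells. This ratio ran from -1.17 to -0.04 in the 15 alternatives. Over unmarked adult cells Rpl34 had -0.66, which turned to 0.27 as a difference of mean log2 values.

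The stalk of the large subunit, which recruits elongation factors, is built from Rplp0 with Rplp1 and Rplp2, and its genes did not move together. Rplp0 ran from 0 through 375 to 2751 CPM in marked adult, from 0 through 317 to 2093 CPM in unmarked adult and from 14.4 through 284 to 1051 CPM in pregnancy cells. Its log2 ratio for pregnancy was -0.57 over marked and -0.46 over unmarked adult cells, and it stayed between -0.90 and -0.10 in the 15 alternatives for both. Rplp1 had 0.59 and 0.04, from means of 222, 329 and 339 CPM in marked adult, unmarked adult and pregnancy cells. Rplp2 had -0.07 and 0.03, from means of 157, 146 and 149.5 CPM.

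**Figure D5:**
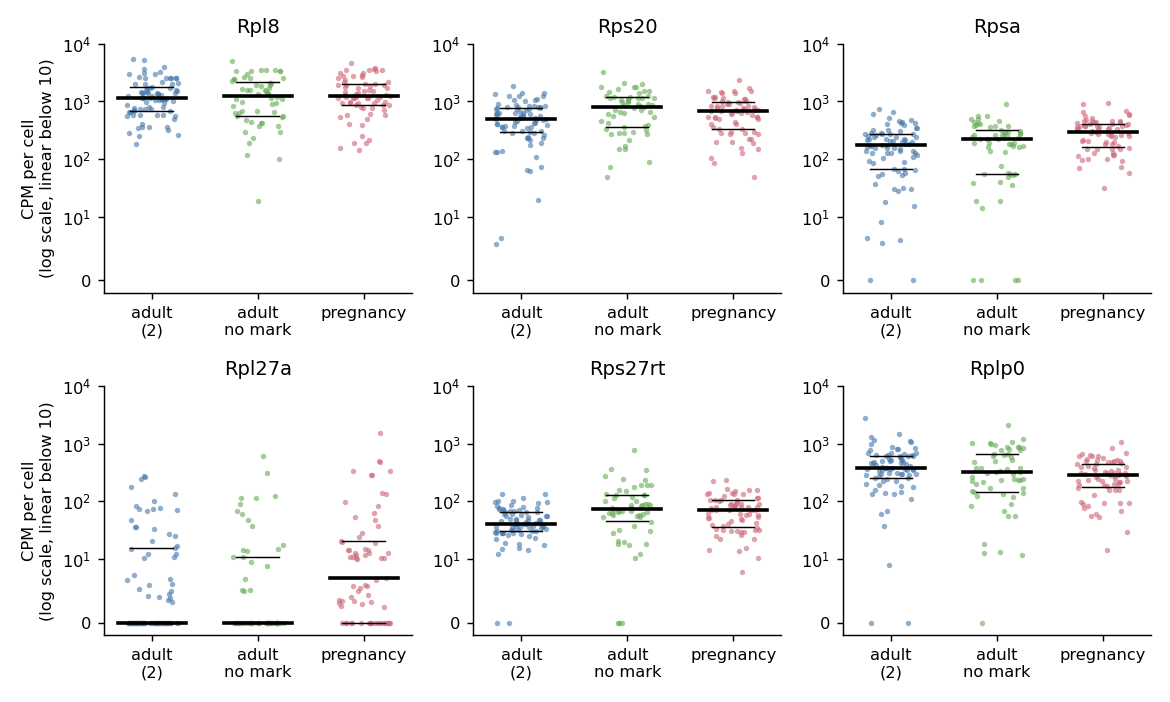
CPM of Rpl8, Rps20, Rpsa, Rpl27a, Rps27rt and Rplp0 in each retained cell (log scale, linear below 10) by group; points are cells, thick lines medians and thin lines quartiles. The groups overlap for each gene, Rpsa has its highest median, 294 CPM, in pregnancy, and Rpl27a has medians of 0 in both adult groups.

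Between the adult groups the largest ratio upwards was that of Rps27rt. It ran from 0 through 40.9 to 134 CPM in marked adult cells, from 0 through 73.0 to 769 CPM in unmarked adult cells and from 7.86 through 70.3 to 236 CPM in pregnancy cells. The log2 ratio of unmarked over marked adult cells was 0.98, just under the limit, and 0.86 without the highest cells, and it was 1.14 with cells of at least 100000 read pairs and 1500 genes. Rps15a (0.74), Rpl26 (0.63), Rps20 (0.63) and Rpl22 (0.61) followed. Their signs did not change in the 15 alternatives, but their lowest values were 0.36, 0.46, 0.53 and 0.03 in this order. Rps20 ran from 5.74 through 493 to 1826 CPM in marked adult cells and from 49.6 through 814 to 3268 CPM in unmarked adult cells. In the other direction Rpl19 (-0.60), Rpl7a (-0.45), Rpl34 (-0.27), Rps16 (-0.18) and Rplp0 (-0.11) were named by the rule, and the last 3 changed sign in 1 or 2 alternatives. Rpl19 rested on 1 marked adult cell with 1817 CPM, against a median of 21.4 CPM in that group, and its ratio was -0.03 without the highest cells. The ratio furthest below 0, that of Rpl30 (-0.97), was outside the rule because its means were 35.9 and 13.5 CPM, and it is named after its value was seen.

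Members with roles outside the ribosome are given whatever their values. Rps27a, which is made as a fusion with ubiquitin, had ratios of -0.03 and 0.35 for pregnancy over marked and unmarked adult cells. Rps6 had -0.58 and -0.35 from means of 35.4, 28.7 and 20.3 CPM in marked adult, unmarked adult and pregnancy cells. Rpl5 had 0.07 and -0.51 and Rpl11 0.50 and 0.46, the latter from means of 2.00, 2.37 and 6.96 CPM, of which the pregnancy value was 4.92 CPM without its highest cell. Rpl38, which favours translation of some Hox mRNAs, had 0.49 and 0.30, Rpl22 had 0.43 and -0.17, and Rpl41 had -0.06 and 0.05.

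Neighbours in the same pathway were counted beside the members. Of the ribosomal proteins outside the name rule, Rack1 had 727, 821 and 1006 CPM per kb in marked adult, unmarked adult and pregnancy cells, and Fau 58.0, 70.9 and 102.8. Of 13 elongation factors and other genes known for the TOP motif, 9 lay above 0 for pregnancy over marked adult cells. Of them 1, Eif3f, was at least 2-fold higher (1.21), against 13.8% of all genes. Over unmarked adult cells 6 of 13 lay above 0 and 0 passed, against 14.6% higher and 14.8% lower of all genes. Eef1a1, which carries aminoacyl-tRNA to the ribosome, was at 1425, 1280 and 1171 CPM per kb, and the median of the list was 0.15 over marked and -0.09 over unmarked adult cells, close to the members' 0.14 and -0.01.

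Genes that build ribosomes differed most between the adult groups. Of 31 ribosome biogenesis genes, 9 were at least 2-fold lower and 2 at least 2-fold higher in unmarked than in marked adult cells, with a median log2 ratio of -0.64, while the member median was 0.18. Over all genes of at least 50 CPM, a level that 19 of the 31 reached, 11.8% were lower and 13.6% higher in this comparison. In 15 alternatives, a check added after the data were seen, the list median lay between -0.70 and -0.28 and between 1 and 13 genes were at least 2-fold lower. The lowest counts were 1 lower and 1 higher with 100 CPM added, and 2 lower and 0 higher with means of log2 values. Gnl3, a nucleolar GTPase, had 476, 178 and 375 CPM in marked adult, unmarked adult and pregnancy cells, Ubtf, a factor of RNA polymerase I, 110.4, 28.2 and 96.6 CPM, and Ncl, the nucleolar protein nucleolin, 3052, 2360.3 and 2240.2 CPM. For pregnancy over marked adult cells 2 of 31 passed upwards and 5 downwards, against 13.8% and 11% of all genes. Over unmarked adult cells 5 and 2 passed, against 14.6% and 14.8%. Nop2 went the other way between the adult groups, with 45.9 and 204 CPM in marked and unmarked adult cells. Of 13 genes of mTOR signalling and translation control, 2 were at least 2-fold higher in pregnancy than in marked adult cells, Rheb (1.26) and Tsc2 (1.60), a share close to the 13.8% of all genes. Over unmarked adult cells 1, Myc (1.34), was at least 2-fold higher, against 14.6% of all genes. Tsc2 had -0.97 there, from means of 9.37, 105.6 and 48.9 CPM in marked adult, unmarked adult and pregnancy cells. Myc, which drives ribosomal genes, had 442, 109 and 290 CPM in the order above. The 78 mitochondrial ribosomal protein genes, which serve a separate ribosome, had median ratios of 0.01, -0.00 and -0.06 in the comparisons in the order used above. Of these 78, 9, 11 and 10 were at least 2-fold higher, against 13.8%, 14.6% and 13.6% of all genes of at least 50 CPM. At least 2-fold lower were 2, 7 and 8, against 11%, 14.8% and 11.8%. Only 25 of the 78 reached 50 CPM.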

How the data were processed

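Cells of the mouse mammary gland were profiled on the Fluidigm C1 and sequenced as read pairs. The values are counts of read pairs per Entrez gene and cell, as the authors deposited them, with no normalization and no molecular identifiers. Per the labels and methods, the authors aligned to mm10 with Subread 1.5.0 and counted with featureCounts against the RefSeq genes supplied in Rsubread. Use of strand and treatment of multi-mapping reads are not given in the sources used here. Symbols came from RefSeq (GRCm38.p6), and 1904 IDs without a symbol (1.66% of reads) and 15 mitochondrial genes were left out. Cells needed 50000 read pairs and 1000 genes, the limits of the authors for these cells, but counted with the ribosomal protein genes, which the authors set aside in their own work. CPM used these totals, cells weighed equally, and 10 CPM was added before log2 ratios. Depth ranged from 52694 to 415224 assigned read pairs per retained cell. Doublets were not called. Cells were thinned once at random without replacement. Intervals are exact (Clopper-Pearson, 95%) and cover counting error only. With 1 sample per group no test was made. Named genes were the 6 highest and 6 lowest members per kb and fixed lists by role and paralogy. Added to these were up to 8 in each direction with 1 sign for pregnancy against both adult groups. Those higher in pregnancy needed 50 CPM there, and those lower needed it in each adult group. Between adult groups up to 5 in each direction were named, with 50 CPM in the higher group. Members, lists and rules were chosen with earlier results of these data known. Shared windows were found with Python 3.11.15 (numpy 2.4.6, pandas 2.3.3, scipy 1.17.1), and the ratio code was tested on simulated counts. Values of some single genes are not reported here.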

Additional observations from a re-analysis of the deposited data

Results flagged for a closer look

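Outside the comparisons, ribosomal protein reads were found in the cells left out and in the pseudogene IDs, each time above the limit set by 0 reads. In the 31 marked adult cells left out for depth or gene number, the summed share was 1.40% (6431 of 459210 reads, interval 1.37 to 1.43%), below the 1.58% of the retained cells. In the 67 unmarked adult cells left out it was 1.499% (interval 1.47 to 1.53%), against 1.87% in retained cells, and in the 4 pregnancy cells left out 1.35% (interval 1.28 to 1.42%), against 1.69%. The 36 pseudogene IDs took 0.0808% of reads in retained marked adult cells, 0.107% in unmarked adult and 0.104% in pregnancy cells. Most of these reads came from few IDs, led by Rpl36-ps12 with 389, 455 and 353 CPM in the same order, more than its parent Rpl36 with 90.3, 94.8 and 76.3 CPM.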

How the results depend on the processing

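No paired analysis was possible because the numbers in the titles name cells and no test was made. Of the results on all members, 27 of 30 values of the share, 40 of 45 list medians, 66 of 90 counts past 2-fold and 17 of 24 values of detected genes stayed within the limits set for a change. The limits were 95% rank intervals of the median, over cells for shares and detected genes and over members for list medians. Counts had a limit on their ratio. Cells and members are not replicates, so these limits describe spread only. A cell filter counted without the ribosomal protein genes kept the same 81, 58 and 71 cells, so its values here could not move. List medians near 0 changed sign: that for pregnancy over marked adult with mitochondrial genes in the totals, and that for pregnancy over unmarked adult, -0.01 as reported, without the cell of highest share (0.0028), without the highest cell of each gene (0.022) and with means of log2 values. No member past 2-fold changed sign. With mitochondrial genes in the totals the median shares were 1.35%, 1.49% and 1.29% in marked adult, unmarked adult and pregnancy cells. The list median for pregnancy over marked adult was then -0.0027. In that comparison 0 members were 2-fold higher and 1 lower, against 9.69% and 14.8% of 3672 other genes that reached 50 CPM as reported. Shares of these other genes follow each count below. With at least 100000 read pairs and 1500 genes (71, 29 and 69 cells), 60 members were detected in unmarked adult cells. At these limits 4 were 2-fold higher for pregnancy over either adult group, against 13.7% over marked and 22.2% over unmarked adult. Over unmarked adult 1 was lower, against 15.3%, and 2 were higher between the adult groups, against 14.6%. Thinning to 20000 reads gave 45, 46 and 49 detected members, and no thinning 67, 63 and 74. A pseudocount of 1 CPM gave 7 higher and 3 lower for pregnancy over marked adult, against 15.9% and 13.3%. It gave 5 higher over unmarked adult, against 17.0%, and 3 higher and 4 lower between the adult groups, against 15.7% and 14.1%. A pseudocount of 100 CPM gave 0 higher for pregnancy over marked adult, against 3.13%. Its median between the adult groups was 0.063, as a larger added value shrinks ratios. Means of log2 values gave medians of 0.16 for pregnancy over unmarked adult and 0.018 between the adult groups. Summed reads gave 1 higher and 1 lower for pregnancy over unmarked adult, against 15.9% each, and 1 higher between the adult groups, against 13.6%. Cells with at least 6 core basal genes gave 1 higher and 1 lower between the adult groups, against 12.7% and 12.4%.

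These alternatives were chosen after seeing the data. Without the highest cell of each gene, 1 member was 2-fold higher over marked adult and 1 (Rpl9) over unmarked adult, against 14.0% and 20.5% of the other genes. With at most 30% mitochondrial reads, 1 (Rpl10) was higher over marked adult and 1 (Rpl17) lower over unmarked adult, against 13.1% and 16.3%. In cells that met no list of another cell type (63, 44 and 59 cells), 1 was higher over marked adult, against 15.0%. Between the adult groups the median was then 0.30, with 2 higher and 1 lower, against 14.4% and 14.9%. Named ratios of at least 0.5 in size kept their sign in 493 of 495 values. That count includes the pseudocounts of 1 and 100 CPM and the cell filter counted without the ribosomal protein genes. No sign could change under these settings, so the count overstates how stable the signs were. Except where stated, the cause was not tested. At the median depth of unmarked adult cells, 103824 read pairs, 1 read is worth about 10 CPM, so low members and single cells at 0 are not resolved.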
